A study of Mus musculus with 18 samples.

Results

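The AP-1 and immediate early genes comprised the Fos family (Fos, Fosb, Fosl1, Fosl2), the Jun family (Jun, Junb, Jund) and the immediate early genes Egr1, Ier2 and Ier3. All probe sets that the chip annotation pairs with one of these symbols alone were taken, which gave 18 probe sets of 10 genes, among 36701 probe sets that are not controls and the 15964 genes that these name. U74Av2 held 13 of them, U74Bv2 held 3 and U74Cv2 held 2. RNA came from 3 dishes of wild-type (WT) FVB/N embryonic stem (ES) cells grown with 1000 units per ml of LIF, the cytokine that keeps mouse ES cells undifferentiated through STAT3, and from 3 dishes of a transgenic line of FVB/N ES cells that overexpresses STAT3-MER, grown without LIF in 1 μM 4-hydroxytamoxifen (OHT). In STAT3-MER the STAT3 protein is fused to part of the estrogen receptor of the mouse, altered so that OHT rather than estrogen switches it on. The transgene is hemizygous and driven by the chicken β-actin promoter. Each group is represented by dishes of 1 line, so that the spread between dishes is not the spread between lines. Both kinds of line were established on mitomycin-treated mouse embryonic fibroblasts, and the dishes of both groups can hold RNA of such feeder cells.

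AP-1 is a dimer of leucine zipper proteins, formed by a Jun protein with a Fos protein or by a pair of Jun proteins, that binds a short DNA element in its target genes. Fos, Fosb, Jun, Junb, Egr1, Ier2 and Ier3 are classical immediate early genes, whose transcription starts within minutes of a growth factor, serum or stress signal without new protein synthesis and whose mRNAs are short-lived. Fosl1, Fosl2 and Jund encode the more slowly or more steadily expressed members of the same families, and the serum response of these genes is classically studied in fibroblasts.

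The sequences around the start sites of Fos, Fosb, Jun and Ier3 are shown because these genes showed 1 order of dishes, and that of Junb because it showed this order in part. Each is 300 bases of RefSeq sequence of the build GRCm38.p6, 250 before and 50 from the annotated start, written 5′ to 3′ on the strand of the gene, and capitals mark the letters of the motifs that were searched on both strands, none of which overlapped another. The windows lie at chr12:85473640-85473939 (+ strand) for Fos, chr7:19309996-19310295 (- strand) for Fosb, chr4:95052173-95052472 (- strand) for Jun, chr17:35821463-35821762 (+ strand) for Ier3 and chr8:84978699-84978998 (- strand) for Junb.
Fos: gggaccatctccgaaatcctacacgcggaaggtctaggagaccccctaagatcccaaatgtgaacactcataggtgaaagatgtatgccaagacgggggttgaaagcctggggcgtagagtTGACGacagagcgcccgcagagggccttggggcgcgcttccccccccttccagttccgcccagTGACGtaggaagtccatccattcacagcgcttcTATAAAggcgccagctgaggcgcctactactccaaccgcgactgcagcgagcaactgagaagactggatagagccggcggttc
Fosb: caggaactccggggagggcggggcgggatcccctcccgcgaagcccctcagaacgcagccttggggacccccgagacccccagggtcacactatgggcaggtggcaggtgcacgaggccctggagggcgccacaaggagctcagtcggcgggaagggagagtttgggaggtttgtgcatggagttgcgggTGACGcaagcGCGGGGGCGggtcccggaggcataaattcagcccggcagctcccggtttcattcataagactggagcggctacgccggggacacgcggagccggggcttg
Jun: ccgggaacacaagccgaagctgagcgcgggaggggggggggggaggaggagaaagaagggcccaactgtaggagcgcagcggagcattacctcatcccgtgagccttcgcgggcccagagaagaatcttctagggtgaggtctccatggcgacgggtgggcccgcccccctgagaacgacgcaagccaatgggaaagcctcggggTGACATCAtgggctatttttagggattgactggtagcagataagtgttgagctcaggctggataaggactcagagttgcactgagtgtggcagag
Ier3: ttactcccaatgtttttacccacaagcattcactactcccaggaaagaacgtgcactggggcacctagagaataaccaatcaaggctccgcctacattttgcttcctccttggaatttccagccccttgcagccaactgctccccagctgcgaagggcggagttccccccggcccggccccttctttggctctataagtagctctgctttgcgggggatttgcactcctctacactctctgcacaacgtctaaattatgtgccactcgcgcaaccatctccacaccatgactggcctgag
Junb: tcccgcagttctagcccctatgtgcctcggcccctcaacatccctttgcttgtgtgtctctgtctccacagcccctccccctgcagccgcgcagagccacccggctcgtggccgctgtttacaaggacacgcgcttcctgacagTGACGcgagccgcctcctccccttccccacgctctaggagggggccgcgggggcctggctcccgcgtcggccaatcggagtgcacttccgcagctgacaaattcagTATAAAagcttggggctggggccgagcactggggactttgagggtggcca

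Promoter sequences were at hand for 7 of the 10 genes, namely these 5 with Fosl2 and Jund. The letters TGACG, the core of the cyclic AMP response element, were found in Fos at positions -129 and -66, in Fosb at -60 and in Junb at -106, where the annotated start is position 1. They occur in 20.8% of the 32851 promoter windows of the table. The Jun window holds TGACATCA, the AP-1-like element to which Jun and ATF dimers bind, at -45, and 3.62% of all windows hold it. GCGGGGGCG, the letters bound by EGR proteins, stand at -50 in Fosb and at -79 in Fosl2, against 2.91% of all windows. TATAAA was found in Fos at -33 and in Junb at 1 (13.6% of all windows). The letters TGANTCA (7.81% of all windows), TTCNNNGAA, which STAT proteins bind (8.3%), and the CArG box of serum response factor (1.63%) were in 0 of the 7 windows. The windows of Ier3 and Jund held none of the letters searched. These matches describe the sequence and say nothing of binding in these cells. Sequence outside the windows was not searched, and Fosl1, Egr1 and Ier2 had no window. Sites that differ from the searched letters were not counted. A count of 0 in the windows therefore does not show that these genes lack elements for STAT proteins or serum response factor.

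The deposited files give 1 linear signal intensity for each probe set on each array, made with MAS5 per the submitters' notes, and every array had been scaled by the authors to nearly the same trimmed mean (500.1 to 500.3). Signals are given below as deposited, in the order of replicates 1, 2 and 3. Signals under 200 are called dim, and the signals of different probe sets are not compared with each other. The transgene was visible on 1 probe set of Esr1, the estrogen receptor gene, which read 23.1 ± 15.8 in WT and 27655 ± 3375 in STAT3-MER dishes (mean ± SD, n = 3 each; limma, adjusted p = 7.58e-06). Socs3, a feedback gene of STAT3, read 507, 75.8 and 147 in WT against 585, 2073 and 924 in STAT3-MER dishes on 92232_at without overlap (limma, adjusted p = 0.9996 over all probe sets, as for its other probe sets). The groups did not overlap on Socs3 probe set 162206_f_at either (log2 fold change 1.74, SE 0.52), but on 111736_at of U74Bv2 they did, with 173, 166 and 116 in WT against 147, 120 and 343 in STAT3-MER dishes. The brightest Stat3 probe set read 819 ± 17.4 and 925 ± 293. All 13 listed ES cell markers were measured, and their summed signal was 58491 to 88075 in WT and 66489 to 74519 in STAT3-MER dishes. Few bright probe sets make up much of it, such as Dppa5a with 43340 in WT replicate 1. For 13 markers of differentiated cells the sum was 2155 to 3786 in WT and 1978 to 2827 in STAT3-MER dishes. The sums of the lists come from different probe sets and are not compared. Of 26 listed genes of feeder fibroblasts 25 were measured, and their summed signal was 57813, 26143 and 60219 in the WT dishes against 15787, 65311 and 49469.9 in the STAT3-MER dishes on U74Av2. WT replicate 2 and STAT3-MER replicate 1 were thus low in this sum of fibroblast transcripts, below each of the other dishes. None of the 25 genes was listed at 0, and 20 of them had a mean signal of 200 or more. In RNA of a whole dish, fewer cells of a type and less RNA per cell cannot be told apart.

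Fos, the founding Fos protein, gave the most uneven signal of the family. Its main probe set (160901_at, chromosome 12) read 4569.8, 262 and 2463 in the WT dishes against 269.8, 8205 and 1252 in the STAT3-MER dishes. WT replicate 2 and STAT3-MER replicate 1 were low and nearly equal, STAT3-MER replicate 2 was highest, and the groups overlapped. The highest dish had 31.3 times the signal of the lowest, and the ratio was 17.4 within WT and 30.4 within STAT3-MER. The log2 fold change (with its standard error, SE) of STAT3-MER over WT was -0.028, SE 1.29 (limma, adjusted p = 0.9996, as for each of the 18 probe sets), and its sign depended on the dishes included. It was -1.27 without STAT3-MER replicate 2 and 1.12 without STAT3-MER replicate 1. The sign was also positive without WT replicate 1, WT replicate 3 or STAT3-MER replicate 3. A dim Fos probe set (161716_at) read 9.2, 82.3 and 49.2 in WT against 60.6, 26.5 and 93.1 in STAT3-MER dishes and did not show this order of dishes.

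Fosb, a close relative of Fos, followed the same order. The dishes read 616, 228 and 603 in WT against 198, 788 and 453 in STAT3-MER (103990_at, chromosome 7). WT replicate 2 and STAT3-MER replicate 1 were again the lowest dishes of their groups and STAT3-MER replicate 2 the highest of all. The group means were 482 ± 221 and 479.7 ± 296 (SD, n = 3 each), with a log2 fold change of -0.075 (SE 0.52).

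Fosl1 encodes FRA-1, which lacks the transactivation domain of Fos, and was the only gene of the 10 with groups that did not overlap. Its probe set (99835_at, chromosome 19) was dim and read 104, 133 and 132 in WT against 186, 201 and 165 in STAT3-MER dishes. Every STAT3-MER dish exceeded every WT dish, with a ratio of means of 1.5 and a log2 fold change of 0.48 (SE 0.26). The difference did not pass limma's test over all probe sets (adjusted p = 0.9996), and an exact permutation test of 3 against 3 dishes cannot give a p below 0.1. Over all chips, the groups were apart on 4.5% of the probe sets with STAT3-MER higher and on 3.63% with WT higher, so that 1 of 18 is near the background. STAT3-MER replicate 2 was the highest dish as for Fos, but WT replicate 2 and STAT3-MER replicate 1 were not the lowest of their groups.

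Fosl2 encodes FRA-2, which like FRA-1 lacks that domain, and was read by 3 probe sets (chromosome 5). The brightest (163512_at, U74Bv2) read 985, 2542 and 3812 in WT against 701, 3613 and 4579 in STAT3-MER dishes. Another on the same chip (109982_at) read 197, 552 and 395 in WT against 206, 514 and 513 in STAT3-MER dishes. On both, replicate 1 of each group was lowest, and the groups overlapped, with log2 fold changes of 0.10 (SE 0.67) and 0.10 (SE 0.46). Whether a replicate number of either group names the same dish on U74Bv2 as on U74Av2 is not certain, so this order was not set against that of Fos. The dim probe set on U74Av2 (103546_at) read 25.5, 87.4 and 17 in WT against 112, 20.6 and 30.1 in STAT3-MER dishes, and here WT replicate 2 and STAT3-MER replicate 1 were the highest dishes of their groups.

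In the Jun family, Jun showed the order of dishes of Fos, Junb in part and Jund not. Jun, the principal partner of Fos (100130_at, chromosome 4), read 269.8, 107 and 249 in WT against 72.2, 266 and 193 in STAT3-MER dishes. WT replicate 2 and STAT3-MER replicate 1 were the lowest dishes as for Fos, while the 4 others lay between 193 and 269.8 and the groups overlapped. The log2 fold change was -0.25 (SE 0.47), and 0.19 without STAT3-MER replicate 1. The Jun probe set on U74Cv2 (171444_r_at) was dim in every dish, with 40.2, 43.9 and 26 in WT against 79.8, 36.6 and 60.7 in STAT3-MER.

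Junb, which is induced like Jun and is often a weaker activator, had 2 probe sets on U74Av2 (chromosome 8). Both carry a suffix that marks probes of lower specificity. The brighter (102363_r_at) read 764, 331 and 440.1 in WT against 382, 1204 and 527 in STAT3-MER dishes, and the other (102362_i_at) read 254, 31.6 and 104 in WT against 71.6, 869 and 239 in STAT3-MER dishes. STAT3-MER replicate 2 was the highest dish on both, and WT replicate 2 the lowest. The ratio of means was 1.38 for the brighter and 3.03 for the dimmer of the pair. The log2 fold change of 1.12 (SE 0.81) on 102362_i_at was the highest of all 18 (limma, adjusted p = 0.9996), and without STAT3-MER replicate 2 it came to 0.31. On 102363_r_at it was 0.36 (SE 0.44), and -0.10 without that dish.

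Jund, the Jun protein that resting cells also hold, varied little between dishes. Its bright probe set (102364_at, chromosome 8) read 5734, 6512 and 3894 in WT against 5252, 5790.5 and 6371 in STAT3-MER dishes. The highest dish had only 1.67 times the signal of the lowest, which was WT replicate 3. The log2 fold change was 0.14 (SE 0.23). The dim Jund probe set on U74Bv2 (106973_at) read 98.7, 36.3 and 76.5 in WT against 89.2, 170.3 and 72.8 in STAT3-MER.

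**Figure D1:**
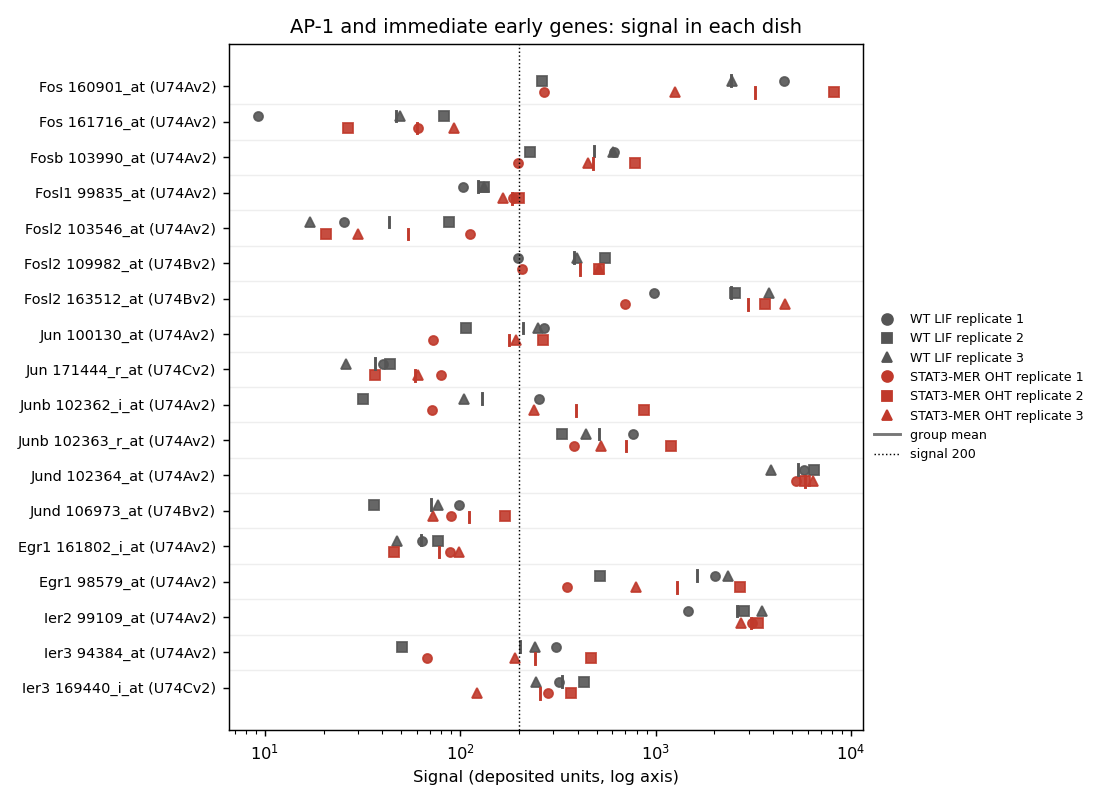
Signal of each of the 18 probe sets (rows, with the chip in brackets) with grey marks for WT and red marks for STAT3-MER dishes, in deposited units on a log axis. Shapes mark the replicate number, short vertical lines the group means and the dotted line a signal of 200. Fos spans 262 to 8205, Jund on U74Av2 only 3894 to 6512, and the groups are apart for Fosl1 alone.

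Egr1, a zinc finger factor of the immediate early response, went with Fos. The main probe set (98579_at, chromosome 18) read 2028, 520.0 and 2352 in WT against 352, 2697 and 796 in STAT3-MER dishes. WT replicate 2 and STAT3-MER replicate 1 were lowest once more, STAT3-MER replicate 3 was closer to them than to the rest, and the groups overlapped. Its log2 fold change of -0.55 (SE 0.76) was the lowest of all 18 and did not pass (limma, adjusted p = 0.9996). It was -1.31 without STAT3-MER replicate 2 and 0.11 without STAT3-MER replicate 1. The dim Egr1 probe set (161802_i_at) read 64, 77 and 47.7 in WT against 89, 45.7 and 98.3 in STAT3-MER dishes, without this order.

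Ier3, which encodes a stress-inducible protein linked to cell survival, likewise showed this order on U74Av2. Its probe set there (94384_at, chromosome 17) read 311, 50.6 and 242 in WT against 67.7, 465 and 192 in STAT3-MER dishes. The lowest dishes were those of Fos, and the highest was again STAT3-MER replicate 2. A second Ier3 probe set on U74Cv2 (169440_i_at) read 319, 428 and 245 in WT against 283, 368 and 122 in STAT3-MER dishes, with the lowest signal in STAT3-MER replicate 3. The log2 fold changes were 0.17 (SE 0.69) and -0.40 (SE 0.48), and the groups overlapped on both.

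Ier2, a nuclear protein of the same early response, did not go with Fos. It read 1473, 2838 and 3501 in WT against 3110.3, 3349 and 2754 in STAT3-MER dishes (99109_at, chromosome 8). WT replicate 1, one of the high dishes of Fos, was the lowest, and the 3 STAT3-MER dishes were close to each other. The log2 fold change was 0.32 (SE 0.31), and -0.042 without WT replicate 1.

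The comparison of STAT3-MER cells in OHT with WT cells in LIF gave no AP-1 or immediate early gene that passed the test. At an adjusted p under 0.05 from limma (p-values adjusted over all 36701 probe sets), 0 of the 18 probe sets were called, against 1 of 36701 or 0.00272% of all, the Esr1 probe set. At an unadjusted p under 0.05 the count was 0 as well, where 3.45% of all probe sets passed, and the smallest p was 0.101. The methods' criteria were a ratio of means over 1.5, a difference over 100 and p under 0.1 from the methods' t-test. The paper applied them to values that the dChip software modelled from the scanner files, which were not remade here. On the deposited signals these criteria selected 0 of the 18, where 1.1% of all probe sets were selected as higher in STAT3-MER and 0.872% as lower. By the methods' t-test alone 1 of the 18, Fosl1, had p under 0.1, as did 5.47% of all probe sets, so that the count is near the background. After Benjamini-Hochberg adjustment 0 of the 18 did. The log2 fold changes ran from -0.55 to 1.12, 13 above and 5 below 0, with a median of 0.17, and the median over all probe sets was 0.0094. When each dish was left out in turn, 12 of the 18 log2 fold changes took the opposite sign at least once. The 3 dishes a group and their spread limit the precision, and a p that misses the threshold does not show that the groups are alike.

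**Figure D2:**
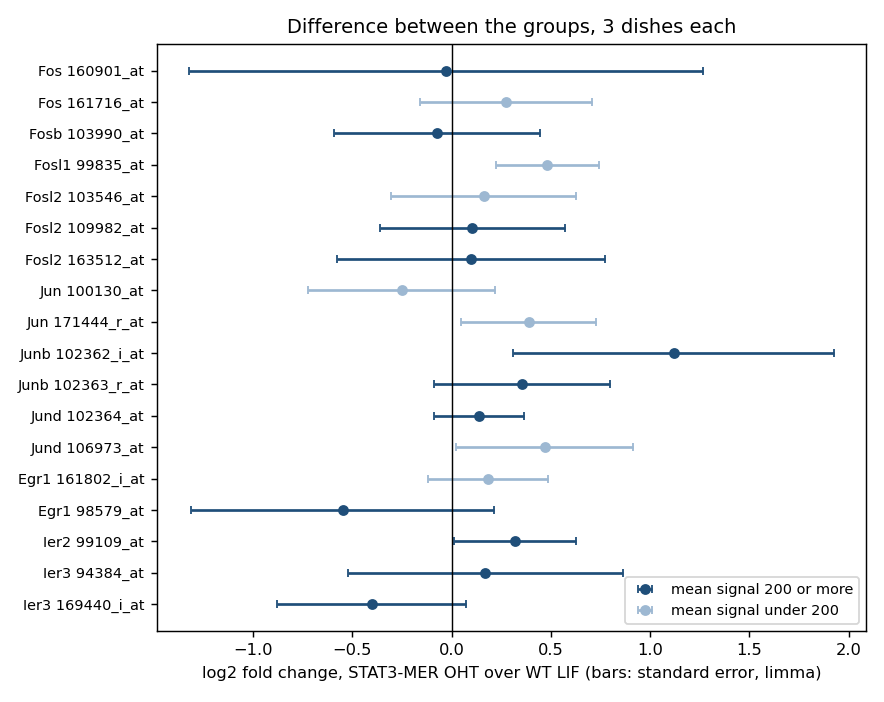
Log2 fold change of each probe set, STAT3-MER dishes in OHT over WT dishes in LIF, on the log2(signal + 32) scale, with bars for limma's standard error (n = 3 dishes each). Dark points have a mean signal of 200 or more and pale points less. Fos has the widest bar, 1.29 to each side, and the points run from -0.55 for Egr1 to 1.12 for Junb.

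Several of these genes differed widely between dishes of the same group. On U74Av2, 8 of their 13 probe sets had a mean signal of 200 or more, and 5549 probe sets in all did. The residual SD, the spread within groups on the log2 scale, was 2.24 for Fos and ranked 2 among these 5549. Rank 1 belonged to a probe set of Cxcl1, a chemokine that fibroblasts release on stimulation (residual SD 2.30). The residual SD was 1.35 for Junb on 102362_i_at (rank 41), 1.30 for Egr1 (rank 49), 1.13 for Ier3 (rank 84), 0.84 for Fosb (rank 271) and 0.71 for Junb on 102363_r_at (rank 430). Ier2 with 0.46 (rank 1241) and Jund with 0.29 (rank 3041) were nearer to the middle of the chip. The median over the 8 was 0.99, and that over all 5549 was 0.31. The highest dish had a median of 5.83 times the signal of the lowest for the 8 and 1.79 times for all. On U74Bv2 the brightest Fosl2 probe set ranked 106 among 7108 with 1.24.

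**Figure D3:**
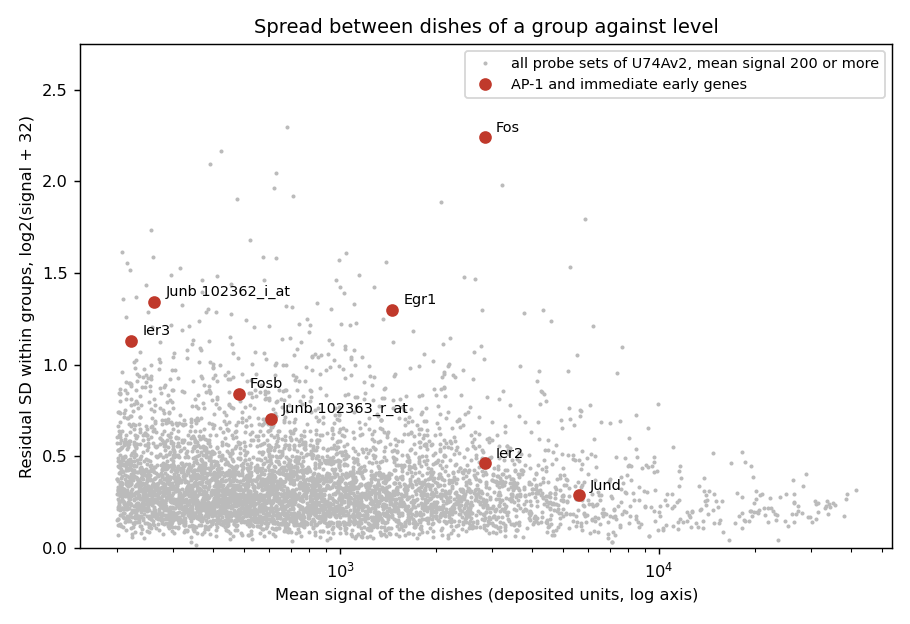
Residual SD within groups on the log2(signal + 32) scale against the mean signal of the 6 dishes (log axis, deposited units) for the 5549 probe sets of U74Av2 with a mean signal of 200 or more (grey) and the 8 probe sets of AP-1 and immediate early genes among them (red). Fos lies at 2.24, near the top of the chip, and Jund at 0.29 within the main cloud.

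The order of dishes seen in Fos was then counted on U74Av2 as a rule that was chosen after the signals had been seen. Each of WT replicates 1 and 3 and STAT3-MER replicates 2 and 3 had to read over 1.5 times both WT replicate 2 and STAT3-MER replicate 1. Fos, Fosb, Jun, Egr1 and Ier3 met it, which is 5 of 13 probe sets and 4 of the 8 with a mean signal of 200 or more, where Jun falls just short of 200. Over all 5549 probe sets of that level 157 met it, or 2.83%. Both Junb probe sets failed it. On 102362_i_at only WT replicate 3 (104) fell short, and narrowly, of 1.5 times STAT3-MER replicate 1 (71.6). On 102363_r_at both WT replicate 3 (440.1) and STAT3-MER replicate 3 (527) fell short of 1.5 times STAT3-MER replicate 1 (382). As the rule was built on Fos, the count carries no test.

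**Figure D4:**
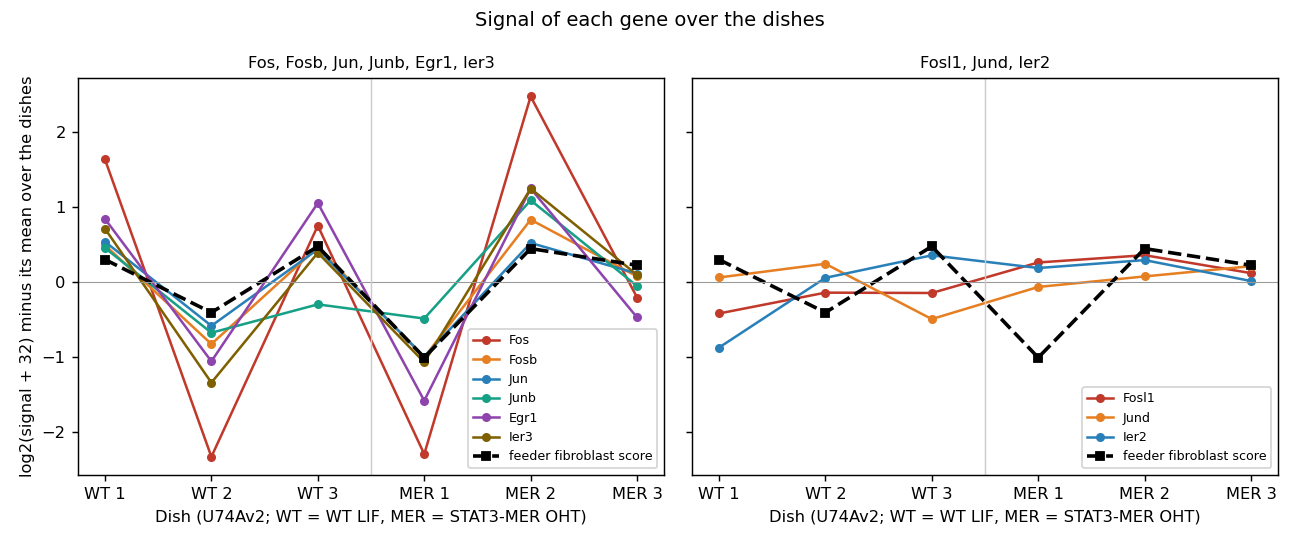
Log2(signal + 32) of each gene minus its mean over the 6 U74Av2 dishes, for Fos, Fosb, Jun, Junb (102363_r_at), Egr1 and Ier3 (left) and for Fosl1, Jund and Ier2 (right), with the feeder fibroblast score as a dashed black line in both. The vertical line divides WT from STAT3-MER dishes. The genes on the left dip in WT replicate 2 and STAT3-MER replicate 1 along with the score, which reads -0.41 and -1.01 there, and those on the right do not.

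The covariation was measured over the 6 dishes of U74Av2 for 15 pairs, the 10 pairs among Fos, Jun, Junb, Egr1 and Ier2 and each of these 5 with a feeder fibroblast score, the mean of the centred log2 signals of 25 fibroblast genes. Pearson's r was 0.943 between Fos and Jun (exact permutation test, p = 0.00556, adjusted p = 0.0278), 0.95 between Fos and Egr1 (exact permutation test, p = 0.0111, adjusted p = 0.0333), 0.952 between Jun and Egr1 (exact permutation test, p = 0.00556, adjusted p = 0.0278) and 0.894 between Fos and Junb (exact permutation test, p = 0.0153, adjusted p = 0.0382). All p-values are two-sided, and these 4 pairs passed after Benjamini-Hochberg adjustment over the 15. Junb did not pass with Jun (r = 0.728, exact permutation test, p = 0.1, adjusted p = 0.167) or with Egr1 (r = 0.741, p = 0.0958, adjusted p = 0.167 by the same exact test). Ier2 had r between -0.261 and -0.132 with the other 4. Each of these 4 values turned positive without WT replicate 1, up to 0.706 with Egr1. Spearman's rho was 0.886 for Fos and Jun, 0.886 for Fos and Egr1, 0.829 for Jun and Egr1 and 0.943 for Fos and Junb, and 0 of the 15 passed by rho (smallest adjusted p = 0.125, exact permutation test). Without WT replicate 2 and STAT3-MER replicate 1, the 2 dishes farthest from the median, r was 0.88, 0.835, 0.943 and 0.866 for these 4 pairs over the 4 dishes left. Within groups, as deviations from the group means, r was 0.963, 0.98, 0.95 and 0.938. The signals of a dish share 1 RNA extract, 1 amplification and 1 array, and the exact tests treat the 6 dishes as independent. Over all of U74Av2, however, deviations from the group means correlated between WT replicate 1 and STAT3-MER replicate 2 (0.459). They also did so between WT replicate 2 and STAT3-MER replicate 1 (0.413). The exact tests do not allow for dishes that vary together, so that their p-values, those with the feeder score included, can be too small.

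Beyond the tested pairs of genes, and as a description only, Fos had an r of 0.991 with Ier3 and 0.982 with Fosb. Jund (-0.203) and Fosl1 (-0.0696) had values near 0 with Fos, while Fosl1 had 0.701 with Ier2. Fosl2 had -0.907 with Fos, but on U74Av2 it was read only by its dim probe set.

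**Figure D5:**
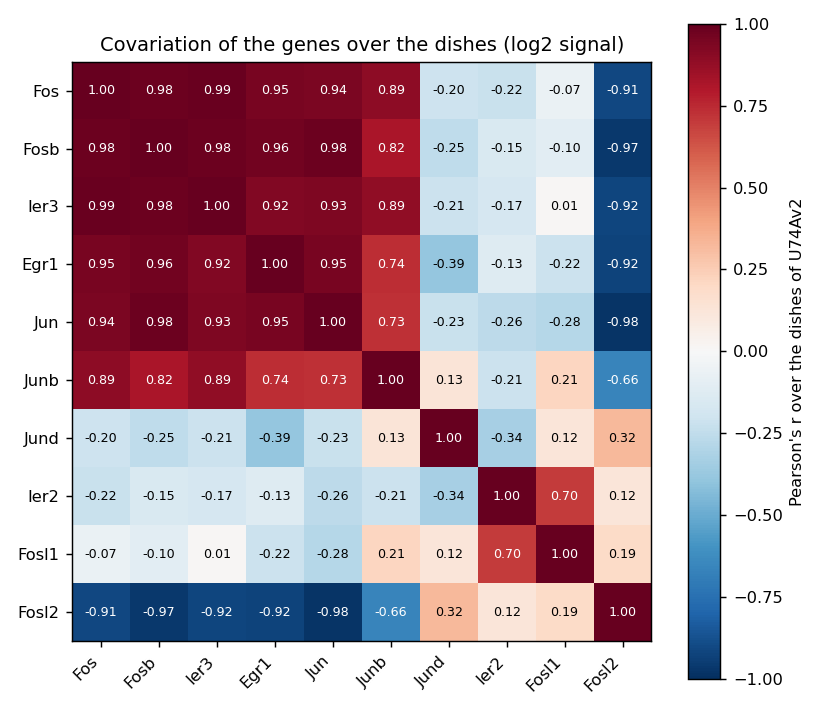
Pearson's r of log2 signals over the 6 dishes of U74Av2 for each pair of the 10 genes, 1 probe set per gene, with red for positive and blue for negative values. Fos, Fosb, Ier3, Egr1, Jun and Junb form a block of positive values from 0.728 to 0.991, which Jund, Ier2 and Fosl1 do not join, and the negative row of Fosl2 comes from a dim probe set.

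The same dishes differed in fibroblast transcripts. The feeder score was 0.29, -0.41 and 0.47 in the WT dishes and -1.01, 0.44 and 0.22 in the STAT3-MER dishes on the log2 scale. Its r was 0.976 with Jun (exact permutation test, p = 0.00833, adjusted p = 0.0312), 0.909 with Egr1 (exact permutation test, p = 0.00278, adjusted p = 0.0278) and 0.872 with Fos (exact permutation test, p = 0.0194, adjusted p = 0.0417). With Junb it was 0.633 and with Ier2 -0.128, and neither passed. Spearman's rho was 0.771, 0.943 and 0.771 for Jun, Egr1 and Fos. Without WT replicate 2 and STAT3-MER replicate 1, r with the score was 0.542 for Fos and 0.641 for Jun, so that these relations rest in part on those dishes, and 0.858 for Egr1. Col1a2, a collagen chain of fibroblasts, read 9561, 4149 and 9352 in WT against 1978, 12564 and 8411 in STAT3-MER dishes, and Acta2, the smooth muscle actin of activated fibroblasts, 10734, 1791 and 6359 in WT against 553, 9487 and 6327 in STAT3-MER dishes. Both were chosen after their values were seen, and both were low in WT replicate 2 and STAT3-MER replicate 1. Not all listed feeder genes were. Vim, Mmp2, Timp2 and Pdgfrb, all dim, had their highest WT signal in WT replicate 2. Fn1, which was bright, read 2322, 2053 and 2024 in WT against 1345, 2259 and 2028 in STAT3-MER dishes. The order of dishes of Fos was met by 10 of the 20 feeder genes with a mean signal of 200 or more on U74Av2. Of 12 ES cell markers 0 met it, where 2.83% of all probe sets of that level did, so that this count is near the background. The ES cell marker Klf4 read 2776, 753 and 1426 in WT against 1056, 4324 and 2393 in STAT3-MER dishes. Its lowest dishes were those of Fos, but WT replicate 3 fell short of 1.5 times STAT3-MER replicate 1. Within the 4 dishes that were high in Fos the order was not the same, since the score was highest in WT replicate 3 and Fos in STAT3-MER replicate 2. With the score as a covariate, an alternative added after the data were seen, the residual SD went from 2.24 to 1.17 for Fos, from 0.71 to 0.18 for Jun and from 1.30 to 0.64 for Egr1, and 0 of the 13 probe sets on U74Av2 were called. It was lower for 9 of the 13 and higher for 4, namely Jund (102364_at, from 0.29 to 0.33), Ier2 (from 0.46 to 0.54), Fosl1 (from 0.14 to 0.16) and the dim Fos probe set (161716_at, from 0.66 to 0.70). Each change in residual SD follows from the correlation of that probe set with the score within groups, and is no separate evidence of a relation. The log2 fold change of Junb on 102362_i_at went from 1.12 to 1.54, SE 0.49 (limma, adjusted p = 0.9996). The part of fibroblast RNA in the signals of these genes was not tested.

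The non-member genes whose log2 signals were most like the mean of Fos, Jun, Junb, Egr1 and Ier2 over the 6 dishes were sought among 5026 U74Av2 probe sets with 1 gene and a mean signal of 200 or more. The 5 highest were Gng12, a G protein subunit (r = 0.993), Bdnf, a neurotrophin (0.993), Atf3, a leucine zipper protein that can pair with Jun proteins (0.99), Abcd4, a membrane transporter (0.989), and Lrp1, an endocytic receptor (0.988). Bdnf read 491, 84.3 and 487 in WT against 55.6, 822 and 267 in STAT3-MER dishes, and Atf3, on a probe set whose suffix marks possible cross-hybridization, 762, 224 and 666 in WT against 179, 1082 and 341 in STAT3-MER dishes. Both had their highest signal in STAT3-MER replicate 2 and their lowest in STAT3-MER replicate 1. In all, 156 of the 5026 had an r over 0.9.

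Other genes around AP-1 were taken as lists, with 1 probe set per gene. Of 29 measured immediate early genes beside the 10, 0 were higher and 0 lower by limma, and the median log2 fold change was 0.020 (0.0040 over 15964 genes). The smallest p-values were those of Maff, a small Maf protein (log2 fold change 0.56, SE 0.27), and Ier5l (log2 fold change -0.48, SE 0.24). Egr2, Atf3, Zfp36, Ccn1, Ptgs2 and Fhl2 met the order of dishes of Fos. These are 6 of the 19 with a mean signal of 200 or more on U74Av2, against 2.83% of all such probe sets. Egr2, a relative of Egr1, read 377, 89.4 and 409.9 in WT against 118, 615 and 203 in STAT3-MER dishes.

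Of 20 measured kinases and factors upstream of these genes, 0 passed in either direction, and the median was -0.0086. Rps6ka3, a kinase downstream of ERK, had the smallest p (log2 fold change -0.50, SE 0.31), followed by Elk1, a partner of serum response factor (log2 fold change -0.36, SE 0.24). Among 8 of them on U74Av2 with a mean signal of 200 or more, 0 met the order of dishes of Fos, which 2.83% of all such probe sets met. Of 22 leucine zipper partners 0 passed, with a median of 0.085 and 1 of 13 (Atf3) in that order. Next to Maff, Cebpb had the smallest p, with 262, 201 and 263 in WT against 292, 391 and 357 in STAT3-MER dishes and no overlap (log2 fold change 0.47, SE 0.24). It was the only 1 of the 22 without overlap, where 4.5% of all probe sets were apart with STAT3-MER higher, so that this is near the background.

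Of 20 measured genes known as AP-1 targets 0 passed in either direction, with a median log2 fold change of -0.12. The matrix proteases Mmp3 and Mmp13 had the smallest p-values of the list. Mmp3 read 908, 1660.0 and 4979 in WT against 597, 536 and 1275 in STAT3-MER dishes, with a log2 fold change of -1.36, SE 0.58 (limma, adjusted p = 0.9996). Mmp13 read 131, 253 and 667 in WT against 89.1, 49.4 and 209.8 in STAT3-MER dishes, with -1.26 (SE 0.59). WT replicate 3 was the highest dish for both, so that they did not follow Fos, and 1 of 10 targets (Ccl2) met its order of dishes. The marker lists gave 0 calls in either direction too. Their medians were -0.22 over 25 feeder genes (smallest p for Vim, -0.44, SE 0.26, and Timp3, -0.40, SE 0.24), 0.14 over 13 ES cell markers (Dppa3, -1.09, SE 0.30, and Tdgf1, 0.48, SE 0.31) and -0.083 over 13 markers of differentiated cells (Krt8, -1.40, SE 0.69, and Foxa2, -0.49, SE 0.35).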

How the data were processed

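The labels and the study's methods put 3 independently grown dishes in each group, each hybridized to U74Av2, U74Bv2 and U74Cv2 after 2 rounds of RNA amplification. The intensity values deposited by the authors (1 per probe set for every array) came from MAS5 according to the submitters' processing notes, which state no version. A STAT3-MER array of U74Av2 without a number was taken as replicate 2, and an array labelled with both chips B and C was taken as U74Cv2, whose probe sets it holds.

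Arrays were scaled to the mean trimmed mean of their chip (2% off each end). Log2(signal + 32) was compared with limma 3.58.1 in R 4.3.3 (each chip fitted alone, lmFit, eBayes with trend, two-sided), with Benjamini-Hochberg adjustment across 36701 probe sets (198 controls left out), a threshold of 0.05 and no filter. Adding 32 shrinks the fold changes of dim probe sets. Genes come from the chip annotation. The code was tested on simulated arrays. The methods' t-test was run with unequal variances, a form the methods do not give. Correlations used exact permutation tests (numpy 2.4.6, scipy 1.17.1), within U74Av2, and figures matplotlib 3.10.9.

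Named were every probe set of the 10 genes, the 2 genes of each other list with the smallest p, Esr1, Stat3 and Socs3, and the 5 most like genes. For lists, probe sets without a suffix were preferred, then the brightest. Col1a2, Acta2, Klf4, Egr2, Cxcl1 and the genes counted for the order of dishes were named after their values were seen. The members and lists were chosen with earlier results of these data known. The alternatives are given at the end.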

Additional observations from a re-analysis of the deposited data

How the results depend on the processing

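None of the 18 probe sets was called under any of the 18 alternatives (other scalings, pseudocounts of 8 and 100, the filter on dim probe sets, a variance model without a trend, adjustment within each chip, the methods' criteria, the methods' t-test after Benjamini-Hochberg adjustment, the feeder score as a covariate on U74Av2, each dish left out). Over all chips the count of called probe sets was 1 to 2 with a dish left out, and 2 without WT replicate 3. The replicate numbers were not taken as pairs. Deviations from the group means correlated between equal numbers at -0.296, -0.335 and 0.287 on U74Av2, 0.180, 0.211 and 0.130 on U74Bv2 and 0.107, 0.132 and 0.0703 on U74Cv2. On U74Bv2 and U74Cv2 every dish correlated best with its own number, but on U74Av2 WT replicate 1 did so with STAT3-MER replicate 2 (0.459) and WT replicate 2 with STAT3-MER replicate 1 (0.413), so that the block joins dishes there that did not deviate together. With the replicate number as a block 1 probe set was called in all and 0 of these genes. Of the 18 probe sets 7 had a mean signal under 200, where the files give no detection call to tell signal from background.

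The 7 correlations past the threshold kept their sign in every alternative, and their count stayed within 1.5 times. Fos with the feeder score did not pass under median scaling (r = 0.844, exact permutation test, adjusted p = 0.0804), and Fos with Junb did not pass with the probe sets of each gene averaged (r = 0.869, exact permutation test, adjusted p = 0.0536). With a dish left out, r of Ier2 spanned -0.541 to 0.594 with Fos, -0.441 to 0.468 with Jun, -0.821 to 0.39 with Junb, -0.355 to 0.706 with Egr1 and -0.326 to 0.372 with the feeder score.

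Several log2 fold changes took the other sign in some settings, none past the threshold, and the cause was not tested. Fos (160901_at) gave 0.040 with quantile normalization, 0.12 with the mean of its probe sets and 0.70 with the feeder covariate. With that covariate Fosb gave 0.22, Fosl2 (103546_at) -0.10 and Jun (100130_at) 0.0017, and the dim Egr1 probe set gave -0.18 with the mean of its probe sets. With a dish left out, the ranges were Fos on 160901_at from -1.27 to 1.12, Fos on 161716_at from -0.13 to 0.60, Fosb on 103990_at from -0.51 to 0.41, Fosl2 on 103546_at from -0.28 to 0.55, Fosl2 on 109982_at from -0.27 to 0.50, Fosl2 on 163512_at from -0.45 to 0.93, Jun on 100130_at from -0.61 to 0.19, Junb on 102363_r_at from -0.10 to 0.69, Jund on 102364_at from -0.078 to 0.29, Egr1 on 98579_at from -1.31 to 0.11, Ier2 on 99109_at from -0.042 to 0.57 and Ier3 on 94384_at from -0.46 to 0.75.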

Other observations

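Among probe sets of U74Av2 with a mean signal of 200 or more, those with the widest spread within groups included, besides Fos, several of chemokines, which stimulated fibroblasts are known to release. The 10 widest included 2 probe sets of Cxcl1 and those of Cxcl5, Ccl2 and Ccl7, all named after their values were seen. Ccl2 read 1132, 650.3 and 9130.1 in WT against 404, 1319 and 6701 in STAT3-MER dishes, and Ccl7 read 1741, 432 and 5298 against 191, 1324 and 3426. Like Fos, Ccl2 and Ccl7 were lowest in WT replicate 2 and STAT3-MER replicate 1, but their highest dishes were WT replicate 3 and STAT3-MER replicate 3, not STAT3-MER replicate 2. Fgfbp1, a carrier of fibroblast growth factors, ran opposite to Fos, with 252, 1336 and 311 in WT against 1676, 14.4 and 176 in STAT3-MER dishes. Rarg, also among the 10 widest and named after its values were seen, ran opposite to Fos too, with 46.9, 969 and 420 in WT against 798, 39.6 and 585 in STAT3-MER dishes. Ina, named in the same way, did so only in part. It read 109, 1505 and 1164 in WT against 1136, 46.5 and 306 in STAT3-MER dishes, and was high in WT replicate 3, as Fos was. No test was made of these orders or of the cells that the transcripts came from.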
